A study of Mus musculus with 21 samples.

Results

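Protein synthesis begins when initiation factors (eIF) bring the initiator tRNA, the small ribosomal subunit and the capped end of an mRNA together, and it proceeds as elongation factors (eEF) deliver aminoacyl-tRNAs and move the ribosome along. The cap is bound by eIF4E, the scaffold eIF4G and the helicase eIF4A, and the 4E-binding proteins compete with eIF4G for eIF4E. The eIF2 complex carries the initiator tRNA, and eIF2B recharges it with GTP. These factors are among the best known endpoints of growth signalling, through mTORC1 and the eIF2 kinases.

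The genes described here are those whose symbols begin with Eif1 to Eif6, Eef1 or Eef2, without the eIF2 kinases (Eif2ak) and without rows named as pseudogenes. The rule found 61 genes among the 14698 gene symbols that carry a value in at least 1 of the 4 deposited tables. Of these, 58 were present in the tables of the CHZ868 and ruxolitinib treatments and of the CHZ868 washout. All 61 were present in the table of the ruxolitinib washout, where Eef1aknmt, Eif4e1b and Eif4ebp3 were listed in addition.

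RNA was measured in 21 libraries from Ba/F3 cells, a murine line labelled as an interleukin-3 dependent pro-B cell line, that expressed the JAK2-V617F kinase in every group. Ruxolitinib, a type I JAK2 inhibitor, and CHZ868, a type II JAK2 inhibitor, were used at 1 µM. CHZ_treated and Ruxo_treated cells were exposed for 6 h, and DMSO_treated cells received the solvent for the same time. CHZ_wash and Ruxo_wash cells were exposed for 1 h, washed 3 times in PBS and cultured for another 6 h without inhibitor, and DMSO_wash_exp3 and DMSO_wash were the solvent groups of these 2 washouts. Each of the 7 groups held 3 libraries. The line expresses an introduced kinase in a cultured cell, and nothing in the labels says that the 3 libraries of a group came from separate cultures, so p-values measure the spread between these libraries, which may be technical. In such bulk samples, a change in the cells present and a change in RNA per cell cannot be told apart.

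Of the 14 pro-B cell markers examined, Ptprc, Cd79a and Cd79b had values, with Cd79a between 3.92 and 4.47 log2 CPM in DMSO_treated. Under CHZ868 Cd79a rose by 0.42 (limma, adjusted p = 0.0414) with overlapping groups, while Cd79b (0.23) and Ptprc (0.09) did not pass. Under ruxolitinib the groups of Cd79a (0.48) and Cd79b (0.23) lay apart, and those of Ptprc (-0.01) overlapped. After ruxolitinib washout the groups of Cd79b (0.31) lay apart and did not pass. Pax5, Ebf1, Rag1, Rag2, Dntt, Blnk and the surrogate light chain genes had no value in the tables used here. The interleukin-3 receptor chains Il3ra, Csf2rb and Csf2rb2 all had values, summing to 3154 to 3218 CPM in DMSO_treated and 2378 to 2681 in CHZ_treated, where all 3 fell (Csf2rb by 0.36, Csf2rb2 by 0.33 and Il3ra by 0.24 on the log2 scale). They summed to 2726 to 3254 CPM in Ruxo_treated, where Il3ra had a difference of 0.25 with groups that lay apart, to 1603 to 1645 in CHZ_wash against 1652 to 1823 in DMSO_wash_exp3, and to 254 to 281 in Ruxo_wash against 320 to 340 in DMSO_wash. In Ruxo_wash the groups of Csf2rb (-0.36) and Csf2rb2 (-0.43) lay apart and did not pass. The 5 mast cell markers and the 3 Cd3 genes had no value, while the T cell kinase gene Lck lay between 5.79 and 6.74 CPM in DMSO_treated. Of the 5 macrophage genes, Csf1r and Cd68 had values in these samples, and they summed to 15.7 to 19.8 CPM in DMSO_treated and 12.8 to 19.3 in CHZ_treated, where Csf1r fell by 1.18 on the log2 scale (limma, adjusted p = 0.00578) and Cd68 had a difference of 0.47 with groups that did not overlap (adjusted p = 0.054).

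The erythroid genes Gata1, Klf1 and Hba-a1 had values, and the erythroid list, of which 3 of 5 genes were listed in these tables and Hba-a1 was the most abundant, summed to 528 to 570 CPM in DMSO_treated, 701 to 744 in CHZ_treated and 750 to 1102 in Ruxo_treated. Under CHZ868 Klf1 rose by 1.16 (adjusted p = 3.03e-08) and Gata1 by 0.47 (adjusted p = 5.16e-05), and Hba-a1 (0.15, adjusted p = 0.0729) did not pass. Under ruxolitinib the differences of Klf1, Gata1 and Hba-a1 were 0.96, 0.58 and 0.80, each with groups that lay apart. After washout of CHZ868 the erythroid sum was 326 to 401 CPM against 240 to 322 in its solvent group, as Hba-a1 rose by 0.78 (adjusted p = 0.0377) and Klf1 fell by 0.57 (adjusted p = 0.0323). After washout of ruxolitinib it was 3504 to 3605 against 4046 to 4078, as Hba-a1 fell by 0.21 (adjusted p = 0.0367), while Hbb-bs (0.11), Gata1 (0.04) and Klf1 (-0.01) did not pass. The part of these marker shifts in the results below was not tested.

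In DMSO_treated, 3 elongation factor genes were the most abundant members per length of transcript. The length used was that of the longest protein-coding GENCODE transcript of each gene, which need not be the one expressed. The SDs below do not include this uncertainty, and the order of levels depends on it. On the scale of log2 CPM less log2 transcript length in kb, Eef1a1, the GTPase that delivers aminoacyl-tRNA, had a mean level of 12.43 ± 0.02 (SD, n = 3). Eef2, the translocase, followed at a level of 10.48 ± 0.01, and Eef1g, a subunit of the eEF1 exchange complex, at 9.50 ± 0.02. The helicase Eif4a1 (8.87 ± 0.02) and the hypusine-bearing factor Eif5a (8.86 ± 0.05) came next, and their libraries overlapped. Other genes of the eEF1 group lay lower, with Eef1b2 at 8.52 ± 0.07, Eef1d at 5.60 ± 0.08 and Eef1e1, placed there by its symbol, at 3.54 ± 0.23. The median level of the 58 members was 5.84. The order differed between the solvent groups. Eef1a1 was first in all 3, but Eif4a1 (9.75 ± 0.04) had a mean above that of Eef1g (9.71 ± 0.29) in DMSO_wash_exp3, and Eif5a (10.45 ± 0.02) and Eif4a1 (10.12 ± 0.05) lay above Eef1g and Eef2 in DMSO_wash.

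The cap-binding group spanned a wide range in the same units. The level of the scaffold Eif4g1 was 6.62 ± 0.03 and that of Eif4e was 5.32 ± 0.12. The 4E-binding proteins lay close to Eif4e, with Eif4ebp2 at 5.30 ± 0.02 and Eif4ebp1 at 5.13 ± 0.02. The 3 libraries of Eif4e overlapped those of Eif4ebp2. The 5 eIF2B subunits, from Eif2b5 (4.76 ± 0.09) to Eif2b3 (2.86 ± 0.16), all lay below Eif2s1, the alpha subunit of their substrate eIF2 (6.09 ± 0.04). The lowest member in DMSO_treated was Eef1akmt4, a lysine methyltransferase of eEF1A, at 1.56 ± 0.23. Among the same 58 members, the lowest in DMSO_wash was Eif3j1 (1.13 ± 0.10), with Eef1akmt4 at 4.89 ± 0.14. In 35 of the 57 neighbouring pairs of this order, the libraries of the 2 genes overlapped. Levels of genes with many near copies are uncertain, since 72.3% of the 31-base words of the Eef1a1 transcript, 68.0% of those of Eef1g and 67.5% of those of Eif4a1 also occur in transcripts of other genes.

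**Figure D1:**
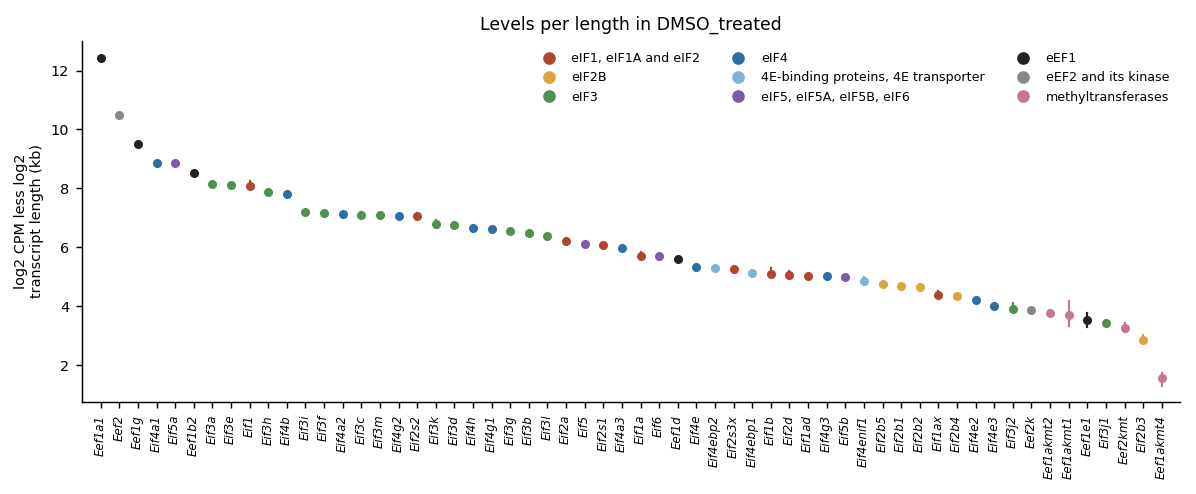
Level of the 58 members in the 3 DMSO_treated libraries, as log2 CPM less log2 transcript length in kb, in falling order and coloured by role; points are means and lines run from the lowest to the highest library. The levels run from 12.43 for Eef1a1 to 1.56 for Eef1akmt4, with the eIF3 subunits mostly above the eIF2B subunits.

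The E-box, the 6-base letters CACGTG that are bound by MYC and related factors, lies close to the starts of some members. Of the 46 members with a RefSeq promoter window (250 bases before to 50 after a start, GRCm38.p6), 13 held CACGTG (28.3%), against 8.09% of all 27025 genes with a window and 11.7% of the 9500 of them that are listed in the expression tables. By role, it was held by 4 of the 9 eIF4 genes with a window (Eif4e, Eif4g1, Eif4a1 and Eif4h) and 3 of 10 eIF3 genes. Eef2 and its kinase gene Eef2k also held it, and none of 4 eIF2B genes did. CACGTG is its own reverse complement, so both strands were read at once. The letters TTCNNNGAA, the core recognised by STAT proteins and also palindromic, were found in 5 of the 46 members (10.9%), namely Eef1e1, Eef2k, Eif3c, Eif3g and Eif4e, against 9.55% of all genes and 8.40% of those listed. The 30-base windows below show an E-box of each of these 4 eIF4 genes, and of Eif1b, Eif5a and Eef2 as examples from other roles. Other E-boxes of Eif4g1 and Eif5a and those of the remaining members are not shown. The E-box is in capitals, each window reads 5′ to 3′ along the gene, and distances count from the start that RefSeq gives, with -1 the base before it. For Eif4e, the first 50 bases after that start were not found in a GENCODE transcript, so its distances rest on RefSeq alone. The windows printed for Eif4e, Eif4g1, Eif1b and Eif5a lie within the GENCODE spans of these genes, after another annotated start.
Eif4e at -228 (chr3:138527028-138527057, plus strand): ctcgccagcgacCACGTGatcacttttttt
Eif4e at -64 (chr3:138527192-138527221, plus strand): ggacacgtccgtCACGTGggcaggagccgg
Eif4g1 at -54 (chr16:20672661-20672690, plus strand): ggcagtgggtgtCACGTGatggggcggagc
Eif4a1 at -189 (chr11:69672595-69672624, minus strand): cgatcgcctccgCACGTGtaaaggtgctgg
Eif4h at -96 (chr5:134639488-134639517, minus strand): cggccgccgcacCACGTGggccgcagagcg
Eif1b at -24 (chr9:120492570-120492599, plus strand): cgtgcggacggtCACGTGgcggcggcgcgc
Eif5a at -178 (chr11:69920791-69920820, minus strand): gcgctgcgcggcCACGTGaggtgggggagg
Eef2 at -43 (chr10:81176576-81176605, plus strand): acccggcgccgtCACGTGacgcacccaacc
A match of letters is a description of the window and does not show that a factor binds there.

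Before the comparisons, several libraries stood apart. Replicate 2 of Ruxo_treated differed from replicates 1 and 3 by a mean squared log ratio 35.2 and 31.8 times that of counting alone, over 9151 genes with at least 100 reads in every library of the group, against 4.77 times between replicates 1 and 3. Replicate 3 of DMSO_wash_exp3 differed from replicates 1 and 2 by 26.9 and 43.3 times, against 6.33 times between those. Replicate 3 of CHZ_treated differed from replicate 1 by 16 times, and the DMSO_treated libraries from each other by 2.58 to 2.83 times.

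The share of mitochondrially encoded transcripts moved with these libraries and with CHZ868. The tables list 14 to 19 such genes. Their share was 1.43%, 1.43% and 1.37% of summed CPM in DMSO_treated and 4.98%, 4.94% and 6.38% in CHZ_treated. It was 1.70%, 3.53% and 1.73% in Ruxo_treated, and 2.85%, 2.28% and 5.35% in DMSO_wash_exp3, where the deviating replicate was the highest in each case. The CHZ_wash libraries lay between 1.77% and 2.14%. The members together held 3.07% to 3.10% of the DMSO_treated libraries and 2.86% to 2.97% of the CHZ_treated libraries, so these groups did not overlap. Replicate 2 of Ruxo_treated (2.75%, against 3.07% and 3.11%) and replicate 3 of DMSO_wash_exp3 (3.15%, against 3.69% and 3.79%) were the lowest of their groups.

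**Figure D2:**
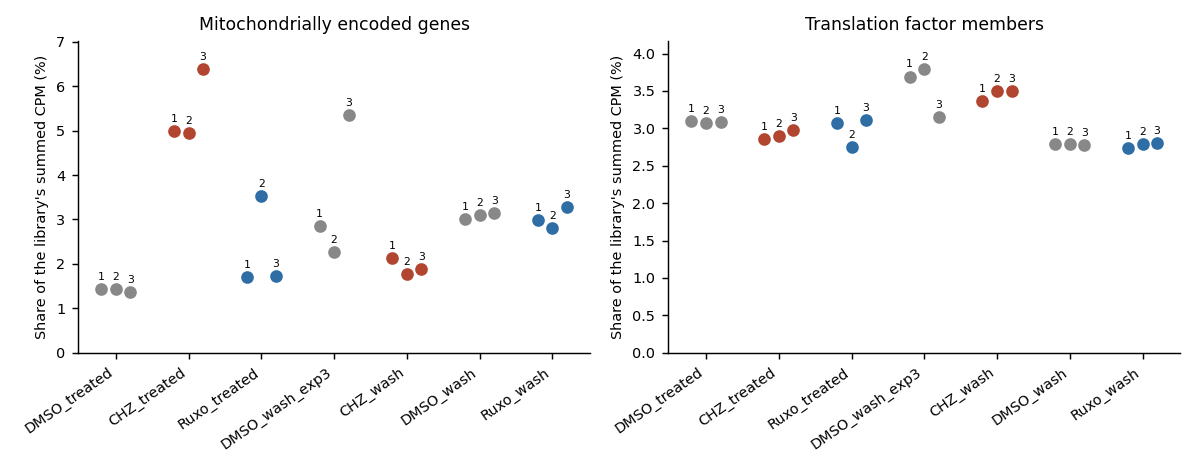
Share of each library's summed CPM, in percent, held by the mitochondrially encoded genes listed in its table (left) and by the translation factor members (right), with replicate numbers above the points. Replicate 2 of Ruxo_treated and replicate 3 of DMSO_wash_exp3 have the highest mitochondrial share and the lowest member share of their groups.

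Across the 58 members, the deviation of Ruxo_treated replicate 2 from its 2 companions correlated with that of DMSO_wash_exp3 replicate 3 at r = 0.80 (0.68 over 11227 genes). Their correlations with the CHZ_treated effect were 0.40 and 0.39 (0.48 and 0.44 over all shared genes). These are descriptions over genes, which are not independent, and the part of library quality in the results was not tested. Values without replicate 2 of Ruxo_treated and without replicate 3 of DMSO_wash_exp3 are therefore given for most members named in the comparisons that hold them.

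Exposure to CHZ868 for 6 h changed members in both directions. Of 58 members, 19 rose and 17 fell at an adjusted p under 0.05 (limma with a mean-variance trend, Benjamini-Hochberg adjustment over all 11670 genes), which is 32.8% and 29.3%. The background was of like size, with 26.8% of all genes higher and 26.4% lower. The median log2 fold change was 0.01 for the members and -0.01 for all genes. Of the 36 members past the threshold, 27 stayed past it whichever library was left out. The other 9 were Eef1a1, Eif1ax, Eif2b4, Eif2s2, Eif3f, Eif4a1, Eif4e2, Eif4enif1 and Eif5a, whose highest adjusted p in these fits ran from 0.0579 (Eif4a1) to 0.141 (Eif3f), and without DMSO_treated replicate 3 the rises numbered 12. Under quantile normalization 14 rose and 22 fell. The shares of all genes under these settings are not given here, so the shift in counts cannot be set against the background.

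**Figure D3:**
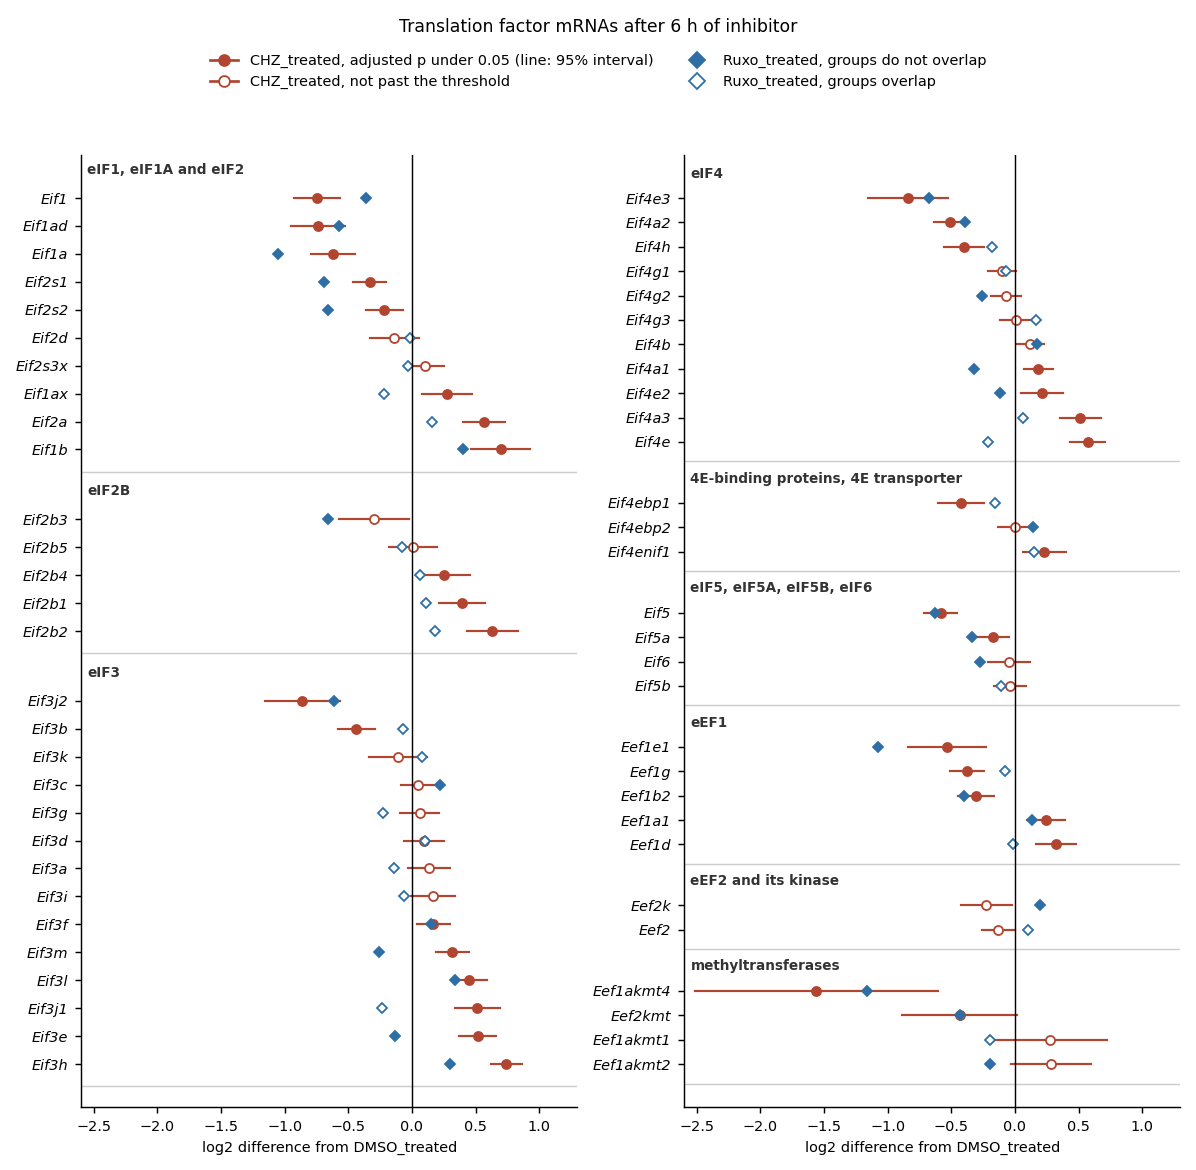
Log2 difference from DMSO_treated for each of the 58 members, by role; red circles with 95% intervals are CHZ_treated (filled where past the threshold) and blue diamonds are Ruxo_treated after median centring (filled where the 3 libraries of each group do not overlap). The CHZ868 values run from -1.56 (Eef1akmt4) to 0.74 (Eif3h). Eif4e, Eif3e and Eif3j1 lie to the right for CHZ868 and to the left for ruxolitinib. For Eif4e and Eif3j1 the Ruxo_treated libraries overlap the controls.

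Among the factors of start codon choice and initiator tRNA delivery, 5 of 10 fell and 3 rose. Eif1, which holds the scanning ribosome open until a start codon is found (chromosome 11, 100319885 to 100322096, GRCm38), measured 8.42, 8.64 and 8.38 log2 CPM in DMSO_treated and 7.85, 7.79 and 7.54 in CHZ_treated. Every CHZ868 library lay below every control library, and the log2 fold change was -0.75 ± 0.08 (SE), adjusted p = 3.23e-06. Values after ± are standard errors from here on. Its close relative Eif1b, on chromosome 9, went the other way, from 5.05, 5.05 and 5.35 to 5.84, 5.96 and 5.74 (log2 fold change 0.70 ± 0.11, adjusted p = 7.24e-05). Only 0.199% of the Eif1b words occur in another gene, while 37.2% of the Eif1 words do.

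The eIF1A genes were also split. Eif1a, the autosomal gene for eIF1A, fell by 0.62 ± 0.08 on the log2 scale, from 7.35, 7.17 and 7.16 to 6.45, 6.69 and 6.66. Eif1ax, the X-linked gene for the same factor, rose by 0.27 ± 0.09 (adjusted p = 0.022), although its groups overlapped. Eif1ad, which encodes a protein with an eIF1A-like domain, fell by 0.74 ± 0.10.

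Of the eIF2 subunits, Eif2s1 measured 7.83, 7.83 and 7.91 in DMSO_treated and 7.55, 7.45 and 7.57 in CHZ_treated, a fall of 0.33 ± 0.06 that separated the groups. Eif2s2 fell by 0.22 ± 0.07, and Eif2s3x (0.10 ± 0.07) did not pass the threshold. Eif2a, an eIF2-independent carrier of initiator tRNA that is unrelated to the eIF2 complex, rose by 0.57 ± 0.08, and Eif2d (-0.14 ± 0.09) did not pass. Among the 5 subunits of the exchange factor eIF2B, 3 rose and none fell. Eif2b2 went from 5.37, 5.45 and 5.20 to 5.97, 6.02 and 5.93 (0.63 ± 0.09), Eif2b1 rose by 0.39 ± 0.08 and Eif2b4 by 0.25 ± 0.10, which is among the calls lost when a library was left out. The catalytic subunit Eif2b5 (0.01 ± 0.09) and Eif2b3 (-0.30 ± 0.13) did not pass.

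The scaffold eIF3, the role with the most members, had the largest number of rises, 6 of 14 subunits (42.9%), with 2 falls. By share of members the eIF2B subunits stood higher, at 60%. Eif3h, one of the PCI and MPN domain subunits that form the body of the complex, had the largest rise of any member, from 8.21, 8.23 and 8.31 to 9.05, 8.91 and 9.01 (0.74 ± 0.06, adjusted p = 5.77e-08). Eif3e, Eif3l, Eif3m and Eif3f rose by 0.52, 0.45, 0.32 and 0.17 (the call of Eif3f was lost in 4 leave-one-out fits), and these belong, like Eif3h, to the PCI and MPN domain subunits, as do Eif3a, Eif3c and Eif3k, which did not pass. Eif3b, which anchors the module of Eif3g and Eif3i, fell by 0.44 ± 0.07, and Eif3a (0.14 ± 0.08), Eif3c (0.05 ± 0.06), Eif3d (0.09 ± 0.07), Eif3g (0.06 ± 0.07), Eif3i (0.17 ± 0.08) and Eif3k (-0.11 ± 0.11) did not pass the threshold. The 2 genes for eIF3j moved apart, as Eif3j1 rose by 0.51 ± 0.08 and Eif3j2 fell by 0.86 ± 0.14. As 94.9% of the words of the Eif3j2 transcript also occur elsewhere, mostly in Eif3j1, reads could be shared between this pair and their opposite values are uncertain.

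In the cap-binding group, Eif4e itself rose, from 7.76, 7.62 and 7.52 to 8.19, 8.22 and 8.22 log2 CPM (0.57 ± 0.07, adjusted p = 3.56e-06). The CHZ_treated libraries were close together and all above the controls. The cap-binding relative Eif4e3 fell, from 5.22, 5.40 and 5.37 to 4.13, 4.59 and 4.75 (-0.84 ± 0.15), and Eif4e2, a cap-binding repressor, rose by 0.22 ± 0.08. The scaffold Eif4g1 was 9.12, 9.08 and 9.14 in DMSO_treated and 8.98, 8.99 and 9.05 in CHZ_treated. These groups did not overlap, but the difference of -0.10 ± 0.05 did not pass (adjusted p = 0.11). Eif4g2 (-0.07 ± 0.06) and Eif4g3 (0.01 ± 0.06) did not pass either.

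The helicases differed. Eif4a1 went from 9.70, 9.71 and 9.68 to 9.86, 9.95 and 9.83 (0.18 ± 0.05, adjusted p = 0.010), a rise that did not pass without DMSO_treated replicate 3 (adjusted p = 0.0579). Eif4a3, the exon junction helicase, rose by 0.51 ± 0.07. Eif4a2 fell from 8.56, 8.53 and 8.59 to 8.14, 8.06 and 7.95 (-0.51 ± 0.06). Of the helicase cofactors, Eif4h fell by 0.40 ± 0.07 and Eif4b (0.12 ± 0.05) did not pass.

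The repressor of eIF4E, Eif4ebp1 (chromosome 8, 27260329 to 27276674, GRCm38), fell while its partner rose. It measured 6.12, 6.15 and 6.12 in DMSO_treated and 5.79, 5.75 and 5.58 in CHZ_treated, a difference of -0.42 ± 0.09 (adjusted p = 0.000705). Eif4ebp2 was 7.83, 7.82 and 7.86 against 7.73, 7.90 and 7.88, with a difference of 0.00 and a standard error of 0.06. Eif4enif1, which carries eIF4E into the nucleus, rose by 0.23 ± 0.08, although its groups overlapped.

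Later steps of initiation fell or did not pass. Eif5, which triggers GTP hydrolysis on eIF2, fell by 0.58 ± 0.06. Eif5a went from 9.33, 9.42 and 9.39 to 9.12, 9.27 and 9.24, and this fall of 0.17 ± 0.06 (adjusted p = 0.021) was lost without CHZ_treated replicate 1 or DMSO_treated replicate 2 or 3, where the adjusted p was 0.0652, 0.106 and 0.0795. Eif6, which keeps the large subunit from joining early, was 6.28, 6.26 and 6.29 against 6.16, 6.33 and 6.19, so its groups overlapped. Eif5b, the GTPase of subunit joining, had a difference of -0.04 ± 0.06.

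All 5 genes of the eEF1 group, which holds Eef1e1 by its symbol, passed the threshold, 2 higher and 3 lower. Eef1a1 measured 13.30, 13.27 and 13.26 in DMSO_treated and 13.50, 13.47 and 13.59 in CHZ_treated, a rise of 0.24 ± 0.07 on the deposited scaling that turned to -0.79 under quantile normalization. It also did not pass when any 1 DMSO_treated library was left out (adjusted p from 0.055 to 0.0757). Of the exchange factor subunits, Eef1d rose by 0.33 ± 0.07, while Eef1b2 and Eef1g fell by 0.31 ± 0.07 and 0.38 ± 0.06. Eef1e1, a component of the multi-tRNA synthetase complex, went from 4.65, 4.92 and 5.12 to 4.52, 4.33 and 4.23 (-0.54 ± 0.14).

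Eef2 was 12.12, 12.10 and 12.12 in DMSO_treated and 11.93, 11.98 and 12.02 in CHZ_treated. The difference of -0.13 ± 0.06 did not pass (adjusted p = 0.0784), though it did without CHZ_treated replicate 3 (-0.15, adjusted p = 0.00113) and under quantile normalization (-0.77). Its kinase Eef2k was 6.59, 6.61 and 6.59 against 6.16, 6.36 and 6.59 (-0.22 ± 0.09, adjusted p = 0.057). The third CHZ_treated library reached the control level, and without it the difference was -0.34 (adjusted p = 0.00149). With the replicate number as a block, the value was -0.22 with an adjusted p of 0.0393.

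Among the methyltransferases of the elongation factors, 1 of 4 passed the threshold. Eef1akmt4 went from 2.19, 2.30 and 1.85 to 1.27, 0.86 and -0.47 log2 CPM, the largest fall among the members (-1.56 ± 0.45, adjusted p = 0.00848). It rested on 4 to 48 reads a library over the groups where reads could be counted, its exons overlap those of Gm49333 on its strand and of Alg3 on the other, and under quantile normalization the difference was -0.93 and did not pass (adjusted p = 0.0732). Eef1akmt1 (0.28 ± 0.21), Eef1akmt2 (0.29 ± 0.15) and Eef2kmt (-0.44 ± 0.21) did not pass.

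Ruxolitinib for 6 h was compared with the same DMSO_treated libraries. As the Ruxo_treated libraries were normalized in a table of their own, values were centred on the median of 11624 shared genes, no test was made, and a member is called higher or lower here where all 3 libraries of each group lay apart. On this count 9 of 58 members were higher (15.5%) and 22 lower (37.9%), against a background of 24.6% of all genes higher and 20.1% lower. The median difference was -0.13 for the members and 0.04 for all genes. Without replicate 2 the counts were 13 (22.4%) and 28 (48.3%), where the background was 31.6% and 25.7%. Under quantile normalization they were 6 (10.3%) and 27 (46.6%), where it was 24.6% and 20%.

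The members farthest below control included factors of start codon choice and of initiator tRNA delivery. Values for CHZ868 are set beside them, and both comparisons share their controls. Eif1a measured 6.30, 6.16 and 6.09 in Ruxo_treated against 7.36, 7.18 and 7.18 in DMSO_treated after centring, a difference of -1.05 (-0.62 for CHZ868). Eef1e1 measured 3.85, 3.76 and 3.88 against 4.67, 4.92 and 5.13, a difference of -1.08 (-0.54 for CHZ868). Eif2s1 measured 7.26, 7.17 and 7.11 against 7.84, 7.84 and 7.92, a difference of -0.69 (-0.33 for CHZ868). The differences of Eef1akmt4 and Eif4e3 were -1.17 and -0.68 (-1.56 and -0.84 for CHZ868). In each of these the 3 inhibitor libraries lay below every control library. Without replicate 2 the differences of Eif1a, Eef1e1, Eif2s1, Eef1akmt4 and Eif4e3 were -1.04, -1.04, -0.68, -1.09 and -0.69. Eif1, which fell under CHZ868, measured 8.35, 7.75 and 8.27 in Ruxo_treated against 8.43, 8.64 and 8.39 after centring. Its groups lay apart, also whichever library was left out, and replicate 2 was the lowest library.

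The highest were Eif1b (5.49, 5.62 and 5.58 against 5.06, 5.06 and 5.37, a difference of 0.40), Eif3l (0.34), Eif3h (0.30), Eif3c (0.22) and Eef2k (0.20). Eif3h measured 8.45, 8.71 and 8.50 against 8.22, 8.24 and 8.32. For Eef2k, the libraries at 6.74, 6.84 and 6.84 lay above the controls at 6.60, 6.62 and 6.60. Without replicate 2 the differences of Eif1b, Eif3l, Eif3h, Eif3c and Eef2k were 0.37, 0.27, 0.22, 0.15 and 0.18.

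Eif4e and Eif4a1 had negative differences, where those under CHZ868 were 0.57 and 0.18. Eif4e measured 7.36, 7.62 and 7.32 against 7.77, 7.63 and 7.54, a difference of -0.21 with replicate 2 inside the control range and -0.31 without it. Eif4a1 measured 9.45, 9.35 and 9.38 against 9.71, 9.72 and 9.70, a difference of -0.32 in which the groups lay apart (-0.30 without replicate 2). A difference between the inhibitors for these genes was not tested, because no table holds both treatments and a fit across tables cannot tell the inhibitor and the table apart.

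Other members of the fixed list are given by their values. Eif4g1 was 9.05, 9.14 and 8.97 against 9.13, 9.08 and 9.15, a difference of -0.07 (-0.11 without replicate 2). Eif4ebp1 was 5.71, 6.22 and 6.01 against 6.13, 6.16 and 6.14, so replicate 2 alone exceeded the controls, and without it the difference was -0.28. Eif4ebp2 was higher at 8.03, 7.98 and 7.98 against 7.84, 7.83 and 7.88, which under quantile normalization no longer separated the groups.

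Eif5a was lower at 9.16, 8.84 and 9.18 against 9.34, 9.43 and 9.40, and Eif6 at 6.16, 5.69 and 6.19 against 6.29, 6.27 and 6.30. In both, replicate 2 was the lowest library. The difference of Eif5a went from -0.33 to -0.22 without it, and that of Eif6 from -0.28 to -0.12. Eef1a1 was 13.43, 13.39 and 13.44 against 13.31, 13.28 and 13.28, a difference of 0.13 (0.15 without replicate 2) that turned to -0.12 under quantile normalization. Eef2 was 12.27, 12.07 and 12.34 against 12.13, 12.11 and 12.13, where replicate 2 was below the controls and the others above, so the difference was 0.10 with it and 0.18 without.

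**Figure D4:**
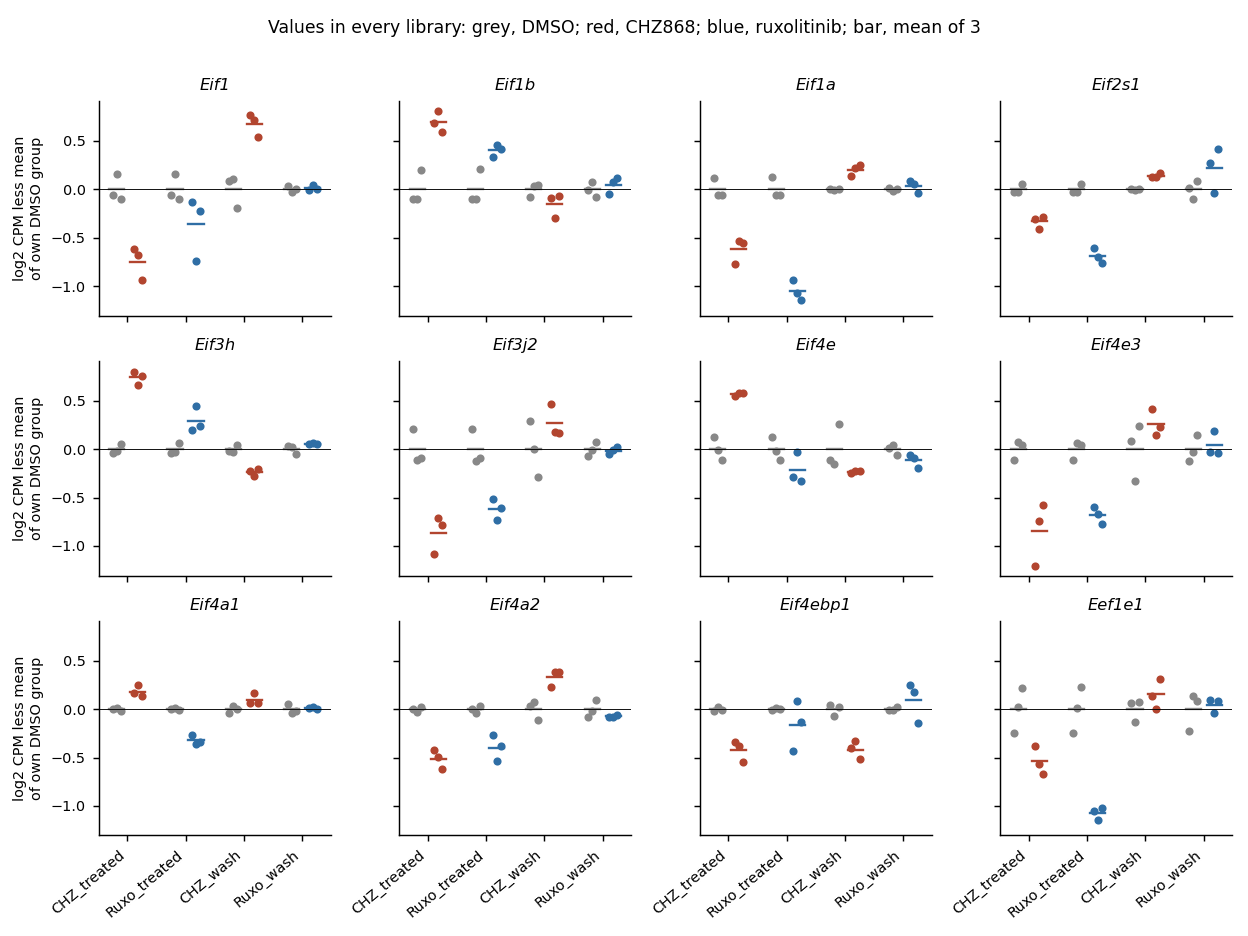
Log2 CPM of 12 members in each library less the mean of its own solvent group, for the 4 comparisons; grey points are DMSO libraries, red CHZ868, blue ruxolitinib, and bars are means of 3. Eif1 lies below control in CHZ_treated and in Ruxo_treated and above it in CHZ_wash, and its Ruxo_wash libraries overlap their controls.

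At 6 h after CHZ868 was washed out, 2 of 58 members passed the threshold. Of these 1 rose and 1 fell, against a background of 4.02% of 11355 genes past the threshold in either direction. Members whose groups did not overlap numbered 11 higher and 9 lower, where the background was 14.9% and 16.1% of all genes. For 45 of the 58 members the 95% interval of the difference lay within 0.5 log2 of 0.

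The member that rose was Eif1, which measured 8.03, 8.05 and 7.75 in DMSO_wash_exp3 and 8.71, 8.66 and 8.48 in CHZ_wash (0.67 ± 0.10, adjusted p = 0.0222). The member that fell was Eif4ebp1, at 6.64, 6.53 and 6.63 in the solvent group and 6.20, 6.27 and 6.08 in CHZ_wash (-0.42 ± 0.09, adjusted p = 0.0409). In both, all CHZ_wash libraries lay on 1 side of all control libraries. No member passed the threshold when CHZ_wash replicate 1, 2 or 3 or DMSO_wash_exp3 replicate 1 was left out, and the adjusted p of Eif1 was then 0.12 to 0.163 and that of Eif4ebp1 0.122 to 0.166. With all libraries but without the mean-variance trend, neither passed (adjusted p = 0.096 and 0.105).

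Without DMSO_wash_exp3 replicate 3, the library with the high mitochondrial share, 5 members rose (8.62%) and 6 fell (10.3%), and so did 6.68% and 5.87% of all genes. The rises were Eif1 (0.58), Eif4a2 (0.28), Eef1b2 (0.26), Eif5b (0.26) and Eif4h (0.25). The falls were Eif4ebp1 (-0.40) and the eIF3 subunits Eif3c, Eif3l, Eif3d, Eif3h and Eif3b (from -0.25 to -0.21). Without replicate 2 of that group, 5 rose (8.62%) and 3 fell (5.17%), as did 5.23% and 6.20% of all genes. These members were named after their values were seen.

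The other members of the fixed list did not pass. Eif4e measured 7.94, 7.96 and 7.95 in CHZ_wash and 8.07, 8.02 and 8.45 in the solvent group, a difference of -0.23 with a 95% interval of -0.47 to 0.01. Replicate 3 was the highest of the solvent libraries, and without it the difference was -0.10 (adjusted p = 0.344). Eif4a1 measured 10.63, 10.74 and 10.64 against 10.53, 10.61 and 10.58 (0.10 ± 0.09). Eif2s1 measured 8.69, 8.69 and 8.73 against 8.57, 8.55 and 8.57 (0.14 ± 0.07), and these groups did not overlap.

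Eef1a1 measured 13.46, 13.52 and 13.52 against 13.80, 13.79 and 13.49, where replicate 3 of the solvent group lay with the inhibitor libraries. Eef2 measured 11.68, 11.79 and 11.82 against 11.95, 12.08 and 11.63, with the same replicate the lowest of all 6. The differences of Eif4g1 (-0.17 ± 0.08), Eif4ebp2 (0.03 ± 0.08), Eif5a (0.12 ± 0.10), Eif6 (0.00, SE 0.13) and Eef2k (-0.17 ± 0.10) did not pass. Without replicate 3 the differences were -0.30 for Eef1a1, -0.25 for Eef2, 0.04 for Eif5a, -0.16 for Eif6 and -0.24 for Eef2k. None of these passed the threshold, and those of Eif4a1, Eif2s1, Eif4g1 and Eif4ebp2 were 0.10, 0.14, -0.16 and 0.02. Without replicate 2 of the solvent group, Eef1a1, Eef2, Eif5a, Eif6 and Eef2k had differences of -0.14, -0.03, 0.22, 0.11 and -0.10. Again none passed, though the groups of Eif5a then lay apart.

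The effect of continuous CHZ868 and that of the washout differed for many members, as tested by the interaction over 12 libraries and 11175 shared genes. The difference was past the threshold and positive for 18 members and negative for 13 of 58, against a background of 23.2% and 23.8%. The groups were prepared in separate experiments with their own solvent controls, so exposure, wash and experiment cannot be told apart. Eif1 fell by 0.75 under CHZ868 and rose by 0.67 after its washout (interaction -1.42 ± 0.15, adjusted p = 1.1e-06). Eif4a2 (-0.51 and 0.33), Eif3j2 (-0.86 and 0.27) and Eif4e3 (-0.84 and 0.27) had interactions of -0.84, -1.13 and -1.11. The largest in size, -1.92 ± 0.55, was that of the low member Eef1akmt4 (-1.56 and 0.36). Without DMSO_wash_exp3 replicate 3 the interactions of Eif1, Eif4a2, Eif3j2, Eif4e3 and Eef1akmt4 were -1.32, -0.79, -0.99, -1.23 and -1.69.

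In the other direction, the interactions were 0.98 ± 0.09 for Eif3h (0.74 and -0.24), with the lowest adjusted p of any member (5.25e-07), 0.85 ± 0.15 for Eif1b (0.70 and -0.15), 0.85 ± 0.13 for Eif2b2 (0.63 and -0.22), 0.80 ± 0.13 for Eif4e (0.57 and -0.23) and 0.73 ± 0.10 for Eif3l (0.45 and -0.28). Without the same library these 5 were 0.96, 0.83, 0.84, 0.67 and 0.70. Eif4ebp1 had like values in both, -0.42 and -0.42, with an interaction of 0.00 and a standard error of 0.12. Among roles, 8 of the 14 eIF3 subunits had a positive and 2 a negative interaction, and 3 of 5 eIF2B subunits a positive one. Of the 31 members past the threshold, 23 stayed past it whichever library was left out, and the other 8 were Eef1a1, Eif2b4, Eif3b, Eif3c, Eif3d, Eif3f, Eif3m and Eif4enif1. Over the 58 members the effects of exposure and washout correlated at r = -0.52 (-0.44 over all genes), and at -0.37 (-0.27) without DMSO_wash_exp3 replicate 3. The points share libraries and depth, and no test was made on them.

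**Figure D5:**
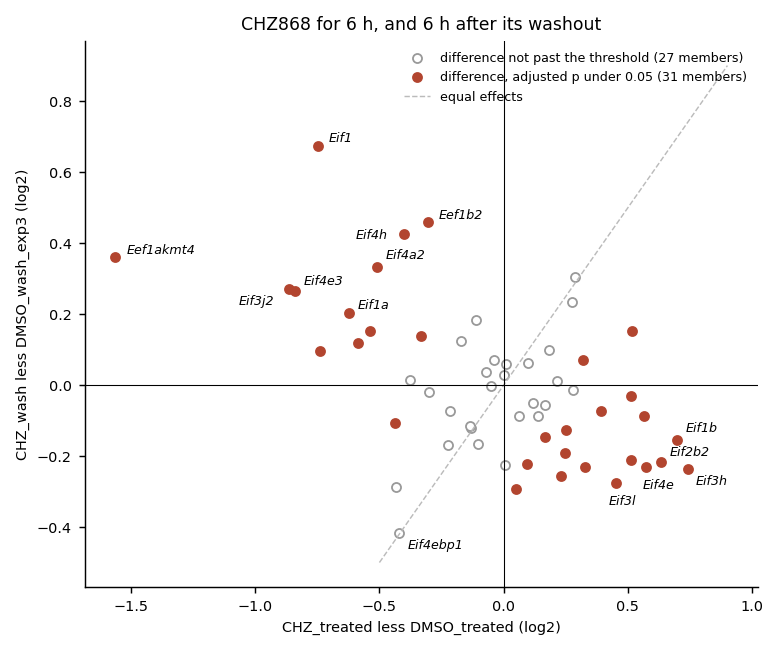
Log2 difference from the solvent group after 6 h of CHZ868 (horizontal) and 6 h after its washout (vertical) for 58 members; filled points are members whose interaction passed the threshold (31) and the dashed line marks equal effects. Eif1 is at -0.75 and 0.67, Eif3h at 0.74 and -0.24, and Eif4ebp1 lies on the line at -0.42.

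After ruxolitinib was washed out, no member passed the threshold in limma. The background was 3 of 13085 genes (0.0229%), and 3 of the 61 members (4.92%) had an unadjusted p under 0.05, as did 7.03% of all genes. These were Eif5 (-0.15 ± 0.05), Eif5b (-0.29 ± 0.12) and Eef2 (0.04 ± 0.01), with adjusted p of 0.64, 0.70 and 0.65. Members with groups that lay apart numbered 5 higher and 4 lower, where the background was 6.30% and 6.59%. For 57 of 61 members the 95% interval lay within 0.5 log2 of 0.

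The values behind these intervals were close. Eif1 measured 9.28, 9.33 and 9.29 in Ruxo_wash and 9.32, 9.25 and 9.29 in DMSO_wash, a difference of 0.01 with an interval of -0.05 to 0.08. Eif4e measured 7.38, 7.35 and 7.24 against 7.45, 7.48 and 7.38, a difference of -0.11 (-0.23 to 0.00). Eif4ebp1 measured 6.86, 6.79 and 6.47 against 6.61, 6.60 and 6.63, a difference of 0.09 (-0.15 to 0.34). Without Ruxo_wash replicate 3 it was 0.21 with groups apart, and without replicate 1 it was 0.02, past the threshold in neither. Eif2s1 measured 6.98, 6.67 and 7.12 against 6.72, 6.61 and 6.79, a difference of 0.22 (-0.07 to 0.51), and the groups overlapped. Without Ruxo_wash replicate 2 the difference of Eif2s1 was 0.34 with groups apart, and without replicate 3 it was 0.12, past the threshold in neither. Eif4e1b, a germline cap-binding protein listed in this table, had a difference of -0.86 with a standard error of 1.49.

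The other fixed members also lay near their controls. The differences were -0.05 ± 0.04 for Eif4g1, 0.01 ± 0.03 for Eif4a1, 0.03 ± 0.04 for Eif4ebp2 and 0.02 ± 0.02 for Eif5a. They were 0.02 ± 0.01 for Eef1a1 and 0.13 ± 0.11 for Eef2k, while Eif6 had a difference of 0.00 and a standard error of 0.06. For Eef2k the Ruxo_wash libraries measured 5.72, 5.72 and 6.11, and without replicate 3 the difference was -0.0004.

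The 2 washouts were compared by the difference of their effects, each taken within its own table, over 10078 shared genes. The values of the CHZ868 washout table were whole multiples of 1 read and those of the ruxolitinib washout table were not, so how each was quantified is uncertain, and it cannot be told apart from the washout. Of 58 members 1 passed the threshold, against a background of 1.9% of genes in either direction. It was Eif1, whose effect was lower after ruxolitinib washout than after CHZ868 washout (-0.66 ± 0.12, adjusted p = 0.022). The call did not pass in 9 of 12 leave-one-out fits, where the adjusted p lay between 0.0527 and 0.0671, nor with a replicate block (adjusted p = 0.0524). Without DMSO_wash_exp3 replicate 3 the difference was -0.56 (adjusted p = 0.00663), and 4 members were then higher and 4 lower (6.90% each), as were 2.60% and 2.66% of all genes. For Eif4ebp1 the difference was 0.51 ± 0.13 (adjusted p = 0.06).

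Genes that act on these factors were examined in 5 lists of 52 genes, of which 50 had a value in the CHZ868 table. There 10 rose and 15 fell, which is 20% and 30.0%, beside the 26.8% and 26.4% of all genes given above. Among the eIF2 kinases and phosphatase subunits, 1 of 9 rose and 3 fell. Eif2ak1, the heme-regulated kinase, rose by 0.49, while Gcn1, the activator of the amino acid sensing kinase, Eif2ak2, the kinase activated by double-stranded RNA, and Ppp1r15b, a phosphatase subunit, fell by 0.75, 0.65 and 0.55. Under ruxolitinib the differences of Eif2ak1, Gcn1, Eif2ak2 and Ppp1r15b were 0.33, -0.18, -0.84 and -0.11, and without replicate 2 they were 0.28, -0.08, -0.96 and -0.06. The groups of Ppp1r15b overlapped.

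Of 13 genes that signal through mTORC1 and the MNK kinases, 1 rose and 3 fell. Pdcd4, an inhibitor of eIF4A, rose by 0.78 ± 0.06. Ddit4, an inhibitor of mTORC1, fell by 0.47, Mtor by 0.25 and Tsc2 by 0.21. Under ruxolitinib the differences of Pdcd4, Ddit4, Mtor and Tsc2 were 0.74, 0.14, 0.10 and 0.34, and 6 of the 13 were higher and 1 lower without overlap (46.2% and 7.69%, against 24.6% and 20.1% of all genes). Without replicate 2 these were 8 and 3 (61.5% and 23.1%, against 31.6% and 25.7%). The groups of Ddit4 overlapped, and without replicate 2 they lay apart, with a difference of 0.34. Among 11 helpers of initiation, 3 rose and 3 fell. Denr, a partner in reinitiation, rose by 0.95 and the poly(A)-binding protein Pabpc1 by 0.82, while Larp1, a repressor of ribosomal protein and elongation factor mRNAs, fell by 0.90. Mcts1, the partner of Denr, fell by 0.41. Under ruxolitinib the differences of Denr, Pabpc1, Larp1 and Mcts1 were 0.00, 0.26, -0.76 and -0.26. Without replicate 2 they were -0.17, -0.02, -0.80 and -0.17, and of these genes only Larp1 had groups that lay apart, with or without it. After CHZ868 washout Mcts1 was the 1 gene of 50 in the 5 lists past the threshold (0.65, adjusted p = 0.04), beside the 4.02% of all genes given above. That call was lost without the trend (adjusted p = 0.103) and without CHZ_wash replicate 1, 2 or 3 or DMSO_wash_exp3 replicate 1 (0.134 to 0.171). Without DMSO_wash_exp3 replicate 3 the value of Mcts1 was 0.50 (adjusted p = 0.00617). Of the 50 genes, 3 were then higher and 3 lower, beside 6.68% and 5.87% of all genes.

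Of 9 termination and rescue genes, 4 rose and 2 fell. Gtpbp2, a ribosome rescue GTPase, fell by 1.5 ± 0.07, and Hbs1l by 0.32. The release factor Gspt1 rose by 0.34 and the selenocysteine factor Eefsec by 0.28, although the groups of Eefsec overlapped. Under ruxolitinib the differences of Gtpbp2, Hbs1l, Gspt1 and Eefsec were -0.66, -0.06, -0.20 and 0.30, with groups apart except for Hbs1l. Without replicate 2 they were -0.54, 0.00, -0.26 and 0.29. Of 8 genes that modify eIF5A and eEF2, 4 fell and 1 rose. Dhps, the first enzyme of hypusine synthesis on eIF5A, fell by 1.06 ± 0.14, and the diphthamide genes Dph1, Dph2 and Dph7 by 1.13, 1.03 and 0.85. The rise was that of Dph6, which completes diphthamide on eEF2 (0.82). Under ruxolitinib 12 genes of the 5 lists were higher and 13 lower without overlap, which is 24.0% and 26.0%, beside 24.6% and 20.1% of all genes. Without replicate 2 they numbered 14 and 19 (28% and 38%, beside 31.6% and 25.7%). Dhps, Dph1, Dph2, Dph7 and Dph6 had differences of -0.65, -0.56, -0.73, -0.26 and -0.16, the last 2 with overlapping groups. Without replicate 2 they were -0.52, -0.37, -0.57, -0.12 and -0.33, and the groups of Dph6 then lay apart. After ruxolitinib washout none of 51 passed the threshold, and 3 (5.88%) had an unadjusted p under 0.05, as did 7.03% of all genes.

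The members with an E-box did not share a direction. Of the 12 with a value in the CHZ868 table, 4 rose (Eif1b, Eif3f, Eif4a1 and Eif4e) and 3 fell (Eef1akmt4, Eif4h and Eif5a), with a median log2 fold change of -0.11. The background of all genes was 26.8% and 26.4%, and the calls of Eif3f, Eif4a1 and Eif5a were lost in some leave-one-out fits. Of the 33 without, 12 rose and 9 fell, with a median of 0.06. Eif4e and Eif4h, whose windows are printed above, thus differed in direction.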

How the data were processed

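RNA from 21 libraries had been sequenced from a stranded kit. The authors deposited log2 CPM values per gene in 4 tables, filtered on low values and scaled with TMM, with replicates kept apart. The authors' methods name kallisto, GRCm38 and edgeR, whereas the submitters' processing notes name STAR 2.7.3a, edgeR 4.0.16 and GRCm39, so the build is uncertain and genes were matched by symbol. In 3 tables low values were whole multiples of 1 read (tolerance 0.02 reads), giving 7880000 to 10670000 reads a library on listed genes; the depth of the Ruxo_wash and DMSO_wash libraries is unknown.

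Each inhibitor group was compared with its solvent group within a table by limma 3.58.1 with a trend (threshold 0.05), and 2 differences of effects by an interaction. Ruxo_treated was centred and not tested. Each fit was tested on simulated data. Fold changes understate those of low genes, since the values hold a constant of 0.22 CPM (0.09 in the Ruxo_wash table). Named members were 11 fixed ones plus up to 5 rises and 5 falls per comparison past the threshold without overlap, and at most 4 genes per pathway list by size of change, apart from genes named to account for every member or count. The members and lists were chosen with earlier results of these data known. Positions and transcript lengths came from GENCODE M21 on GRCm38, which held 60 of 61 members, and promoters from RefSeq on GRCm38.p6. No deposited column went unused.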

Additional observations from a re-analysis of the deposited data

Results flagged for a closer look

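The effects of CHZ868 after 6 h of exposure and after its washout differed by the interaction test (limma, Benjamini-Hochberg adjustment) for 18 members with a positive and 13 with a negative difference, of 58, beside 23.2% and 23.8% of all genes. Among those named by rule, the positive differences in log2 effect were 0.98 for Eif3h, 0.85 for Eif1b, 0.85 for Eif2b2, 0.80 for Eif4e and 0.73 for Eif3l. The negative differences were -1.92 for Eef1akmt4, -1.42 for Eif1, -1.13 for Eif3j2, -1.11 for Eif4e3 and -0.84 for Eif4a2. Of the 31 members, 23 stayed past the threshold in every leave-one-out fit. The 10 named here kept their side of the threshold in the 12 leave-one-out fits. They also kept it without the trend, with median centring, with log2(CPM + 1) and with a replicate block. Quantile normalization was not tried for this difference. The 2 experiments had separate solvent groups, so the wash and the experiment cannot be told apart.

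Between the washouts, 1 member differed by the same test, Eif1 with a difference of -0.66, and its call was lost in 9 of the 12 leave-one-out fits. The high mitochondrial share of DMSO_wash_exp3 replicate 3 (5.35%, against 2.85% and 2.28%) moves with the control side of both differences, and its part in them was not tested. In the difference between exposure and washout, the CHZ_treated libraries also had high shares. These were 4.94% to 6.38%, against 1.37% to 1.43% in DMSO_treated, and their part was not tested either. Without DMSO_wash_exp3 replicate 3, Eif1 had a difference of -0.56 between the washouts.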

How the results depend on the processing

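Of 734 tested values of named members recomputed under another setting, 694 kept their side of the threshold, 32 lost it, 7 gained it and 1 reversed. Of 189 untested values for Ruxo_treated, 180 kept groups that overlapped or lay apart as before, 1 lost the separation, 7 gained it and 1 reversed. The reversals were Eef1a1 under quantile normalization, at -0.79 for CHZ868 and -0.12 for ruxolitinib. For CHZ868 exposure, member counts ran from 12 to 21 higher and 16 to 21 lower as libraries were left out. The shares of all genes in those fits are not given here. For CHZ868 washout, leaving out libraries gave 0 to 5 members higher, 0 to 6 lower and 0 to 1426 genes, and without the trend 0 members and 0 genes passed. For ruxolitinib washout, the genes numbered 9 without the trend, 0 with a replicate block and 0 to 1 without single libraries. For the difference between the washouts, members numbered 0 to 4 higher and 0 to 4 lower and genes 5 to 628 as libraries were left out, 14 genes and 0 members without the trend, and 6 genes and 0 members with the block. The cause of these shifts was not tested. Deviations of same-numbered libraries correlated between -0.07 and 0.05, and those of differently numbered ones between -0.09 and 0.10. With 3 libraries a group, this cannot show whether replicate numbers pair samples. The replicate block gave 18 members higher and 18 lower for CHZ868. Median centring, log2(CPM + 1), log2(CPM + 5) and a mean of at least 3 log2 CPM left every count of members within 1.5 times. For Eef1akmt4, the fewest reads in a library, 4, limit any statement.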

Other observations

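Levels of members differed between the 2 solvent washout groups, which were prepared for different experiments and normalized in separate tables. Eef1akmt4 was 2.10, 2.09 and 1.40 log2 CPM in DMSO_wash_exp3 and 5.42, 5.30 and 5.58 in DMSO_wash. Eif5a was 9.93, 10.15 and 9.79 in the first and 10.99, 10.95 and 10.96 in the second, while Eif2s1 was 8.57, 8.55 and 8.57 against 6.72, 6.61 and 6.79. The first table held whole multiples of 1 read and the second did not, so how each was quantified is uncertain. These differences were not tested, and experiment, table and quantification cannot be told apart.

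The 3 members without a value elsewhere had values in the ruxolitinib washout table. Eef1aknmt, a methyltransferase of eEF1A, had a difference of -0.16 ± 0.07 (SE) between Ruxo_wash and DMSO_wash, Eif4ebp3 one of -0.05 ± 0.38, and Eif4e1b one of -0.86 ± 1.49, none past the threshold (limma adjusted p of 0.71, 0.99 and 0.94).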
